A study of Mus musculus with 2 samples.

Results

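The Jak kinase genes and the genes of the Socs inhibitors were examined under H3K79me2 peaks of unstimulated macrophages. The 10 genes, listed by symbol, are Jak1, Jak2, Jak3 and Tyk2, which make up the Jak family, and Socs1, Socs2, Socs3, Socs6, Socs7 and Cish of the Socs family. All 10 were found among the 21938 protein-coding genes of the annotation. The data come from H3K79me2 ChIP-seq on bone-marrow-derived macrophages, which are primary cells grown from marrow progenitors, of C57BL/6J mice without stimulation. The 2 biological replicates form 1 group, so no treatment, genotype or time was compared. Both replicates carry 1 donor identifier, 1 control experiment and 10 ng of DNA in the labels, which record no age and leave it unstated whether separate animals were used.

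Cytokine receptors of this class have no kinase activity of their own and work through Jak kinases bound to their cytoplasmic tails. Once a cytokine brings receptor chains together, the kinases phosphorylate the receptor and the Stat transcription factors, which move to the nucleus. Several Socs genes are targets of Stat factors, and their proteins bind the receptor or the kinase and recruit a ubiquitin ligase through the SOCS box, which makes a feedback loop. H3K79me2 is placed by Dot1l over the 5′ part of transcribed genes.

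Peaks without read counts were deposited, and library depth is therefore unknown. Replicate 1's own list covered 63.5 Mb and replicate 2's covered 114 Mb. The pooled list was called on both alignments together, and the replicated list was derived from both replicates. The replicated list also holds bases and peaks that replicate 1's own list lacks. Of 10 macrophage marker genes 9 were marked in the replicated list, beside 30.3% of all coding genes. Of 5 genes each for T cells, B cells, neutrophils and fibroblasts none was marked or had a base in that list. In the other lists 1 of the T cell genes had a base, and the rest had none. Genes are termed marked here when a list covers 200 bp or more of the 3 kb that follow the outermost 5′ end in the annotation. An unmarked gene lacks a called peak there, and a level below the calling threshold remains possible.

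The members divided into those with peaks in both replicates, those with peaks in replicate 2 alone, and those with none. In the replicated list 4 of the 10 genes were marked (Jak1, Jak2, Tyk2 and Socs7), beside 30.3% of all coding genes. Jak kinase genes were marked in 3 of 4 cases and Socs family genes in 1 of 6. In replicate 1's own list the same 4 genes were marked, beside 27.2% of coding genes. In replicate 2's list 6 of 10 were marked, beside 35.6%, and in the pooled list 6 of 10, beside 34.3%; in both of these lists the added genes were Jak3 and Socs3. Socs6 was unmarked by this rule because its outermost 5′ end belongs to a transcript outside the basic annotation set. With the 5′ end of any basic-set transcript in place of the outermost one, 5 of 10 members were marked, Socs6 included, beside 32.5% of coding genes. Socs1, Socs2 and Cish had no base under any of the 4 lists, which was also true of 60.1% of coding genes. With 10 genes and 1 group these counts are descriptions, and no test was made.

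**Figure D1:**
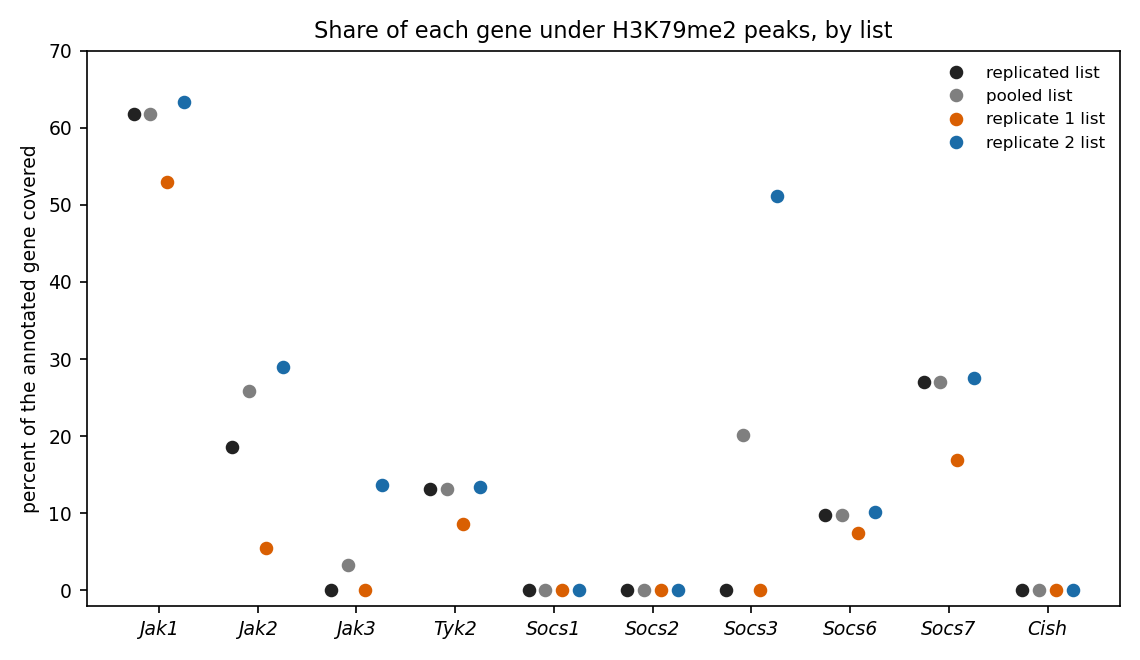
Percent of each annotated gene (y axis) covered by H3K79me2 peaks in each of the 4 lists (colours), 1 point per gene and list, for the 10 genes (x axis). Jak1 is highest at 53.0% to 63.3%, Jak3 and Socs3 have points above 0 in the replicate 2 and pooled lists, and Socs1, Socs2 and Cish are at 0 in every list.

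Jak1, the kinase used by interferon, IL-6 family, IL-10 and γc receptors, carried by far the most bases of the members. The gene (ENSMUSG00000028530.14) spans 112916 bp on the minus strand of chromosome 4 from 101152367 to 101265282 (mm10). Peaks covered 59848 bp in replicate 1, 71486 bp in replicate 2, and 69774 bp (61.8% of the gene) in both the pooled and the replicated list. Every base of replicate 1's coverage was also covered in replicate 2, so that the bases under both replicates made up 0.837 of the bases under either. For comparison, the median of that ratio was 0.613 over the 5962 genes marked in both replicates' lists. Among the 439 marked coding genes within 20% of Jak1's length, the median share of the gene covered was 21.9% and the upper quartile 40.2%; 91.6% of them were covered less than Jak1.

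Coverage of Jak1 was laid out almost entirely over its first intron. Intron 1 of the main transcript is 71178 bp long, the longest of the gene, and 97.7% of it lay under the replicated list; the median was 80.4% over 89 marked genes with a first intron within 20% of that length. The first covered base lay 472 bp from the start and the last at 71684 bp, in intron 2. The start codon lies at 71494 bp, in exon 2, so the covered stretch ended close behind it and left exon 1 and every exon after exon 2 without a base. Of the covered bases 99.9% were intronic, and 6 of the 3459 coding bases were covered. In replicate 2 a further peak of 787 bp reached over exon 6, and replicate 1 had no covered exon base.

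The replicated list divided the Jak1 domain into 5 peaks whose fold over the control, the authors' value for each peak, fell at every step from 5′ to 3′. The fold was 17.7 for the peak from 101243164 to 101264810, then 15.8, 13.4 and 9.97, and 8.96 for the last, from 101193598 to 101198479. Of 535 marked genes with at least 5 peaks, 4.49% had folds that fell at every step. A gene with more than 5 peaks has more steps, so this share is not matched to Jak1's number of peaks. In replicate 2's own list the folds at Jak1 also fell at every step, from 24.0 to 3.41. In replicate 1's own list they did not: the first 3 peaks had folds of 8.37, 3.35 and 8.06. The gaps between the 5 peaks of the replicated list were short: with peaks up to 500 bp apart joined, the longest block grew from 21647 bp to 49030 bp. Over the gene replicate 1 had 18 blocks and replicate 2 had 4, the exon 6 peak included; of the genes marked in both replicates, 28.2% had more blocks in replicate 1.

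**Figure D2:**
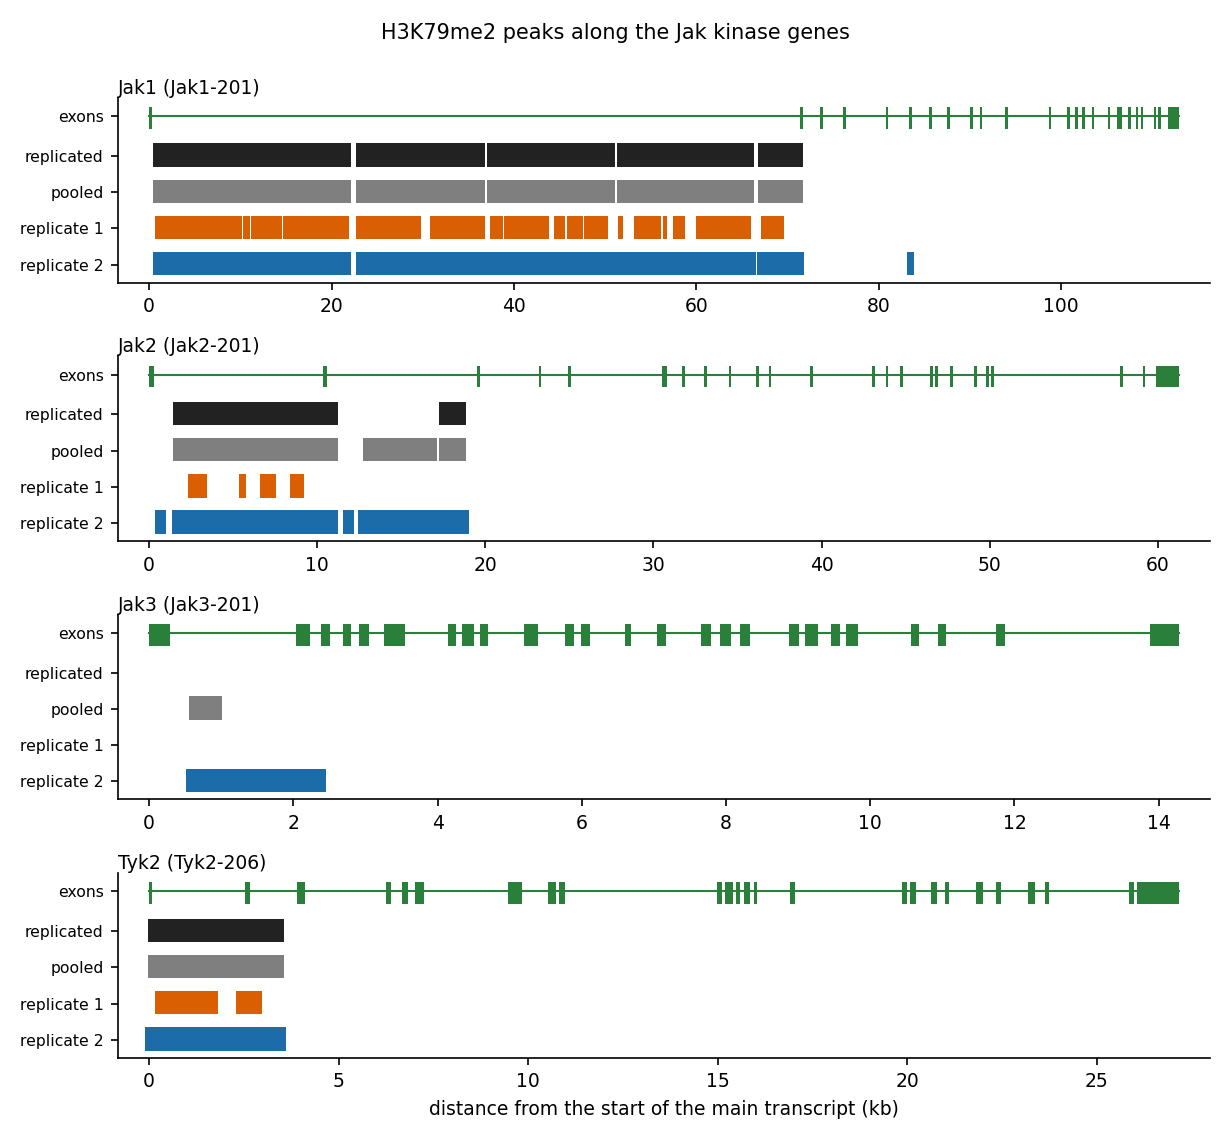
Position of H3K79me2 peaks (filled boxes, 1 row per list) along the main transcript of each Jak kinase gene, with exons in green (thin exons are widened to stay visible) and the distance from the transcript's start in kb on the x axis, which differs between panels. Jak1 is covered over its long first intron up to exon 2, Jak2 and Tyk2 over their 5′ parts, and Jak3 has peaks in the pooled and replicate 2 rows alone.

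Jak2, which serves the receptors of growth hormone, erythropoietin, GM-CSF and interferon γ, differed most between the replicates among the marked members. It spans 61253 bp on the plus strand of chromosome 19 from 29251828 to 29313080 (ENSMUSG00000024789.13). Peaks covered 3318 bp in replicate 1, 17758 bp in replicate 2, 15802 bp in the pooled list and 11389 bp (18.6%) in the replicated list. Replicate 2 thus covered 5.35 times as many bases as replicate 1, against a median of 1.61 over the genes marked in both, and 5.57% of those genes had a higher ratio. All 3318 bp of replicate 1 lay within replicate 2's peaks, in 4 blocks between 2293 and 9195 bp from the start.

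The replicated list's main Jak2 block ran from 29253275 to 29263060, 1447 to 11232 bp from the start, at a fold of 11.2. It covered 88.5% of the 10064 bp first intron, passed over exon 2, which holds the start codon, and ended in intron 2. A second peak, 1603 bp wide at a fold of 4.06, lay further into intron 2, and the 4413 bp peak between them in the pooled list is not in the replicated list. The distance of 1447 bp from the outermost start to the first covered base was long: 94.7% of marked genes were covered nearer to their start, with a median of 377 bp. Jak2 also has a basic-set start 613 bp inside the gene, which is nearer to that base. Replicate 2 alone had a 644 bp peak, at 338 to 981 bp from the outermost start, that shortened the distance.

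Tyk2, the kinase of type I interferon, IL-10 and IL-12 receptors, carried 1 compact block at its start. The gene (ENSMUSG00000032175.11) lies on the minus strand of chromosome 9 from 21104068 to 21131243. Peaks covered 2333 bp in replicate 1, 3629 bp in replicate 2 and 3559 bp (13.1% of 27176 bp) in both the pooled and the replicated list. The block of the replicated list, at a fold of 9.46, began 30 bp upstream of the annotated 5′ end and ended 3558 bp into the gene, in intron 2. It covered the whole first intron of 2460 bp and no coding base, since the start codon lies in exon 3 at 3912 bp. Of all marked genes 8.02% had their outermost 5′ base covered, as Tyk2 did; in replicate 1 the first covered base lay at 174 bp. Among 982 marked genes of like length, 22.0% were covered less. Cdc37, a coding gene on the same strand, ends 1978 bp upstream and had 6981 bp covered in the replicated list. The antisense gene 1700084C06Rik overlaps 24326 bp of Tyk2. The replicated list covered 886 bp over the whole of that antisense gene, part of it outside Tyk2. Peaks carry no strand, so covered bases within the overlap cannot be assigned to either gene.

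Jak3, which binds the common γ chain of lymphoid cytokine receptors, had a peak in replicate 2 and none in replicate 1. It spans 14280 bp on the plus strand of chromosome 8 from 71676296 to 71690575 (ENSMUSG00000031805.17) and overlaps the coding gene Insl3 at its 3′ end, where no base was covered. Replicate 2 covered 1948 bp from 508 to 2455 bp at a fold of 4.55, a value that 46.8% of that list's peaks were below. The pooled list kept 460 bp of this in intron 1 at a fold of 2.77, and the replicated list kept none. The nearest peak of the replicated list lay 60790 bp upstream, in Colgalt1. The pattern of Jak3, marked in replicate 2 with no base of the gene in replicate 1 or in the replicated list, was shown by 1021 coding genes (4.65%); 779 of these had a base in the pooled list. Replicate 2 also covered more bases than replicate 1 in 98.4% of the genes marked in both.

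The kinase genes also differed in the sequence before their starts, which is shown because no peak reached these bases except at Tyk2. RefSeq promoter sequences (GRCm38.p6, 250 bases before to 50 after a start) were found for 7 of the 10 genes; Socs2, Socs6 and Socs7 were not among them. The ratio of observed to expected CpG in this window was 0.947 at Jak1, 0.894 at Jak2, 0.936 at Tyk2 and 0.408 at Jak3, beside a median of 0.384 over 32851 promoters. GC content was 64.7%, 81.0%, 58.0% and 54.3% in the same order. Taking a ratio of 0.6 or more together with 50% GC or more as CpG-rich, the windows of Jak1, Jak2 and Tyk2 qualified and that of Jak3 did not, as 33.5% of all promoters did. The ratio and GC content were 0.614 and 63.3% at Socs1, 0.769 and 73.3% at Socs3, and 0.521 and 53.3% at Cish, so that Socs1 and Socs3 qualified as well, without a base in the replicated list. The 150 bases upstream of both the GENCODE and the RefSeq start held 10, 20 and 11 CpG at Jak1, Jak2 and Tyk2 and 6 at Jak3; each is given 5′ to 3′ on the gene's strand (mm10), with CpG in capitals.
Jak1, chr4:101265283-101265432, minus strand: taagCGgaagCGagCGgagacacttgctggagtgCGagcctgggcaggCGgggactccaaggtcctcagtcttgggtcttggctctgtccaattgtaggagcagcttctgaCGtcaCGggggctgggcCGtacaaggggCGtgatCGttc
Jak2, chr19:29251653-29251802, plus strand: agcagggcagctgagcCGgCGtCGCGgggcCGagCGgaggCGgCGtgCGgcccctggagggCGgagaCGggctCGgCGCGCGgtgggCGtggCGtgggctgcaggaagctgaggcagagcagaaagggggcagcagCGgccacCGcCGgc
Tyk2, chr9:21131276-21131425, minus strand: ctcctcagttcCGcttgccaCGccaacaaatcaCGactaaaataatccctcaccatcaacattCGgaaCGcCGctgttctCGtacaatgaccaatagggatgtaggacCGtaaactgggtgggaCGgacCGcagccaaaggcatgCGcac
Jak3, chr8:71676146-71676295, plus strand: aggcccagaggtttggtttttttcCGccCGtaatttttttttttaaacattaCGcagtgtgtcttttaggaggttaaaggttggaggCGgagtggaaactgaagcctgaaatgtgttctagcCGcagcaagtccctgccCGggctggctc
The peak over the start of Tyk2 covered 48 bases of its 300 base window in the replicated list and 116 in replicate 2. At Jak1, Jak2 and Jak3 no base of the window was covered in any of the 4 lists.

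Among the Socs genes, Socs6 and Socs7 had peaks in both replicates. Their proteins are less studied members with long N-terminal regions, and act on receptor tyrosine kinase and insulin signalling as well as on cytokine signals. Socs6 (ENSMUSG00000056153.15) is annotated over 262258 bp on the minus strand of chromosome 18 from 88665224 to 88927481, but its basic-set transcripts start 33129 to 33265 bp inside that span. Peaks covered 19324 bp in replicate 1, 26453 bp in replicate 2 and 25493 bp in both the pooled and the replicated list. Replicate 1's bases all lay within replicate 2's, in 7 blocks against 2. No base before the basic starts was covered in any list.

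The main Socs6 block of the replicated list was 23110 bp wide, from 88870734 to 88893843, at a fold of 20.9, the highest among the members; 89.5% of the list's peaks were lower. It began 479 bp downstream of the main transcript's start and reached into exon 3, which holds the whole coding sequence. Introns of this transcript were covered to 98.6%, and 720 of 1599 coding bases (45.0%) lay under the replicated list. A second peak of 2383 bp at a fold of 5.11 lay further on in exon 3. Replicate 2 covered 1348 coding bases (84.3%), whereas replicate 1's last covered base lay in intron 2 and it covered none. Socs6 was thus the member with the largest share of coding sequence under the replicated list.

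Socs7 (ENSMUSG00000038485.5) spans 35992 bp on the plus strand of chromosome 11 from 97362551 to 97398542. Peaks covered 6084 bp in replicate 1, 9910 bp in replicate 2 and 9735 bp (27.0%) in both the pooled and the replicated list. The 2 peaks of the replicated list ran from 546 to 8673 bp at a fold of 12.1 and from 8797 to 10403 bp at a fold of 5.36. They covered the end of exon 1 and 97.6% of the 9642 bp first intron, and stopped before exon 2. In replicate 1's own list the blocks lay between 1108 and 8628 bp. That list thus held no exon base and no base under the second peak, which replicate 2's list did cover. The bases under both replicates made up 0.614 of those under either, next to the median of 0.613, and 54.0% of the 911 marked genes of like length were covered less. Socs7 was therefore near the middle of marked genes on both measures.

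**Figure D3:**
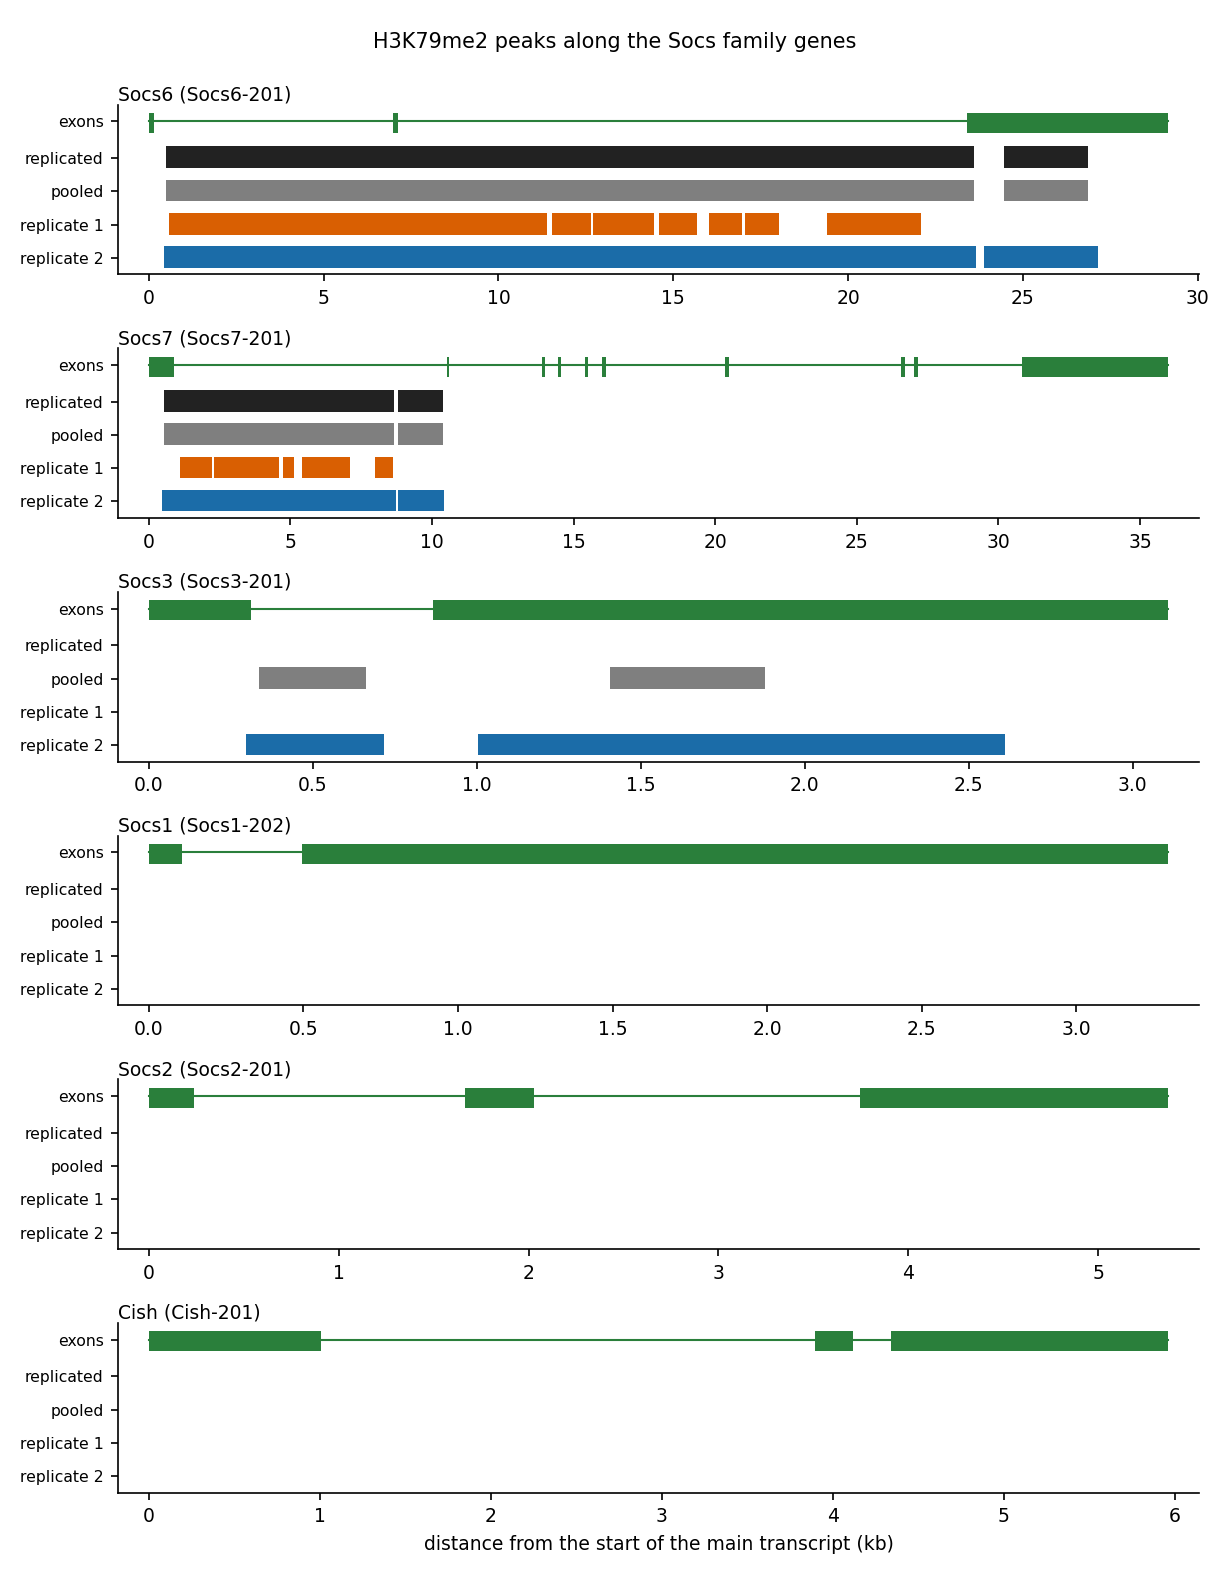
Position of H3K79me2 peaks (filled boxes, 1 row per list) along the main transcript of each Socs family gene, with exons in green and the distance from the transcript's start in kb on the x axis, which differs between panels. Socs6 and Socs7 are covered in all 4 rows, Socs3 in the pooled and replicate 2 rows, and Socs1, Socs2 and Cish in none.

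Socs3, the inhibitor of IL-6 family and G-CSF signalling that binds both the receptor and the Jak kinase, had peaks in replicate 2 and none in replicate 1. The gene (ENSMUSG00000053113.3) spans 3969 bp on the minus strand of chromosome 11 from 117966079 to 117970047, and its single basic-set transcript starts 861 bp inside it. Replicate 2 covered 2030 bp (51.1%) in 2 peaks. The upstream peak, of 422 bp at a fold of 5.49, lay over the end of exon 1 and in the intron. The downstream peak, of 1608 bp at a fold of 3.43, covered part of exon 2, and 628 of the 675 coding bases (93.0%) lay under it. The pooled list kept 801 bp in 2 peaks, at folds of 3.27 and 2.26, and the replicated list kept none. In replicate 2's list 57.6% of peaks had a fold under 5.49, and the downstream peak's fold of 3.43 was below that list's lower quartile of 3.55. The nearest peak of the replicated list, in Pgs1, lay 17236 bp upstream. Socs3 and Jak3 were the 2 members marked in replicate 2 without a base in replicate 1 or the replicated list. In all, 6 members were marked in replicate 2, and 13.1% of all coding genes marked there show this pattern. The part of the unequal lists in this was not tested.

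Socs1, Socs2 and Cish had no peak in either replicate or in the lists made from both. Socs1, which blocks Jak kinases in interferon signalling, spans 3297 bp on the minus strand of chromosome 16 from 10782240 to 10785536 (ENSMUSG00000038037.5). Its nearest peak in the replicated list lay 177331 bp upstream in Litaf, and the testis genes Tnp2 and Prm3 within 5 kb upstream had no covered base in any list. Socs2, a brake on growth hormone signalling, spans 31819 bp on the minus strand of chromosome 10 from 95385362 to 95417180 (ENSMUSG00000020027.18); the nearest peak of the replicated list lay 98576 bp upstream, in Ube2n. Cish, the founding member of the family and a target of Stat5, spans 6759 bp on the plus strand of chromosome 9 from 107296026 to 107302784 (ENSMUSG00000032578.7). Its upstream neighbour Mapkapk3 held the nearest peak, which ended 6706 bp from Cish in the replicated list, 7202 bp in replicate 1's and 6445 bp in replicate 2's.

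By annotated gene length, the 5 members with bases in the replicated list ranged from 27176 bp to 262258 bp, and the 5 without from 3297 bp to 31819 bp. Socs2 at 31819 bp was thus longer than the covered Tyk2 at 27176 bp. The main transcript spans only 5368 bp at Socs2 and 29154 bp at Socs6. By that span the members with bases ranged from 27163 bp (Tyk2) to 112916 bp (Jak1). Those without ranged from 3108 bp (Socs3) to 14280 bp (Jak3). Whether the 2 sets overlap thus depends on the measure of length, and no share of all coding genes was taken by transcript span. The shares that follow use the annotated length. Of coding genes within 20% of their length, 20.3% were marked in the replicated list for Socs1, 21.6% for Socs3 and 22.8% for Cish, and 21.8% for Socs6, which had covered bases. The share was 39.3% for Jak1, 42.0% for Jak2, 39.5% for Tyk2 and 41.4% for Socs7, and 35.6% for Jak3, which had no base in the replicated list. For Socs2, also without a base, 943 of 2359 genes of like length were marked, a share between those of Tyk2 and Socs7. Of genes of like length, 74.7% had no base in any list for Socs1, 70.9% for Cish and 49.5% for Socs2. The part of gene length in the members' differences was not tested.

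**Figure D4:**
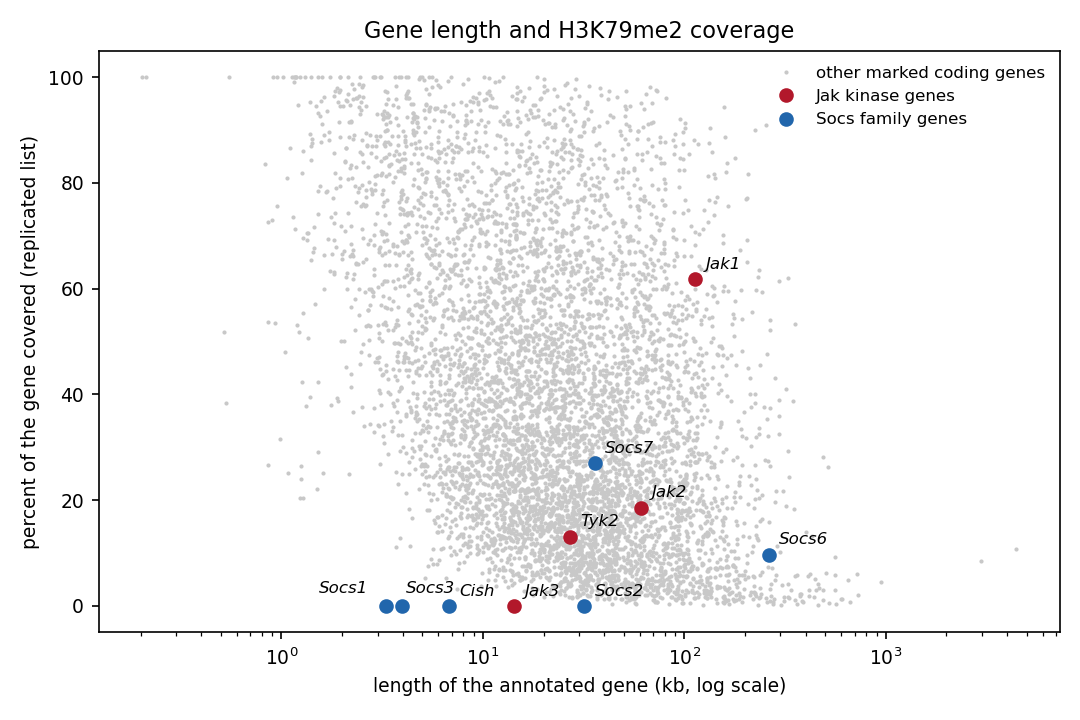
Length of the annotated gene in kb (x axis, log scale) and percent of it covered in the replicated list (y axis), with other marked coding genes in grey, Jak kinase genes in red and Socs family genes in blue. Jak1 lies above most marked genes of its length, Socs7 and Jak2 lie within the grey field, and Socs1, Socs2, Socs3, Cish and Jak3 lie at 0.

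Motifs of the pathway's own transcription factors were looked for in the 7 promoter windows, since Socs1, Socs3 and Cish are known Stat or interferon targets that had no peak in the replicated list. The STAT motif was searched as TTCNNNGAA and in a form with 4 free bases between TTC and GAA, each of which reads the same on both strands. The interferon response core was searched on both strands as GAAA, any 2 bases, then GAAA. TTCNNNGAA was found in 8.30% of 32851 promoters, the wider form in 6.95% and the interferon core in 3.44%. Cish held 2 matches to TTCNNNGAA, Socs3 held 1, and Socs1 held 2 overlapping matches to the interferon core. The windows of Jak1, Jak2, Jak3 and Tyk2 held no match to any of them. The stretches that hold the matches are given 5′ to 3′ on the gene's strand (mm10), with the matches in capitals.
Socs1, chr16:10785597-10785626, minus strand: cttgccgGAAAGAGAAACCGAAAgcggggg
Socs3, chr11:117969501-117969530, minus strand: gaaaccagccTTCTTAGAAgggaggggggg
Cish, chr9:107296654-107296683, plus strand: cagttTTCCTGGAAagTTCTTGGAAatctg
Counted from the RefSeq start, the first base of the matches lay at -83 and -77 in Socs1, at -154 in Socs3, and at 0 and 11 in Cish, whose main GENCODE transcript starts further upstream. A match is a description of the sequence and not a bound site. None of these bases lay under a peak in any list.

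Where the 5 members with bases in the replicated list were covered, most of the bases were intronic. The intronic share of covered bases was 99.9% for Jak1, 97.8% for Jak2, 96.6% for Socs7, 94.0% for Tyk2 and 89.4% for Socs6, and the median over marked genes was 96.8%. Their first introns were covered to between 88.5% (Jak2) and 100% (Tyk2), beside a median of 93.3% over 6537 marked genes with an intron. In the replicated list the peak nearest the start had the highest fold in each of the 5, though Tyk2 had a single peak. Of 2844 marked genes with at least 2 peaks in that list, 74.1% had the highest fold in the one nearest the 5′ end. In this respect the members were like most marked genes in the replicated list. In the replicates' own lists Jak2 differed: its first peak had 3.14 against a top of 3.56 in replicate 1, and 3.61 against 15.5 in replicate 2. Socs7 differed in replicate 1 (3.9 against 4.78) and not in replicate 2.

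The genes with the most similar coverage were sought among coding genes within 20% of each marked member's length, by the sum of absolute differences in percent covered over the replicated list and both replicates' lists. Jak1 was nearest to Pias1 (4.66 percentage points over the 3 lists), Ptk2b (5.82) and Tlk1 (6.55) among 1118 genes. Jak2 was nearest to Pja2 (3.31), Dstyk (4.23) and Clip2 (4.76) among 1642. Tyk2 was nearest to Cwf19l1 (0.548), Pcsk7 (1.61) and Ndc80 (1.63) among 2489, and Socs7 to Ddx58 (2.48), Parp1 (3.34) and Tmem39a (4.02) among 2200.

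The other genes of the pathway were taken from a list of 73, of which 40 (54.8%) were marked in the replicated list, beside the 30.3% of all coding genes. The median gene of this list had 6245 bp covered, against 0 over all coding genes. Receptors that use Jak kinases were marked in 13 of 40 cases, close to the share of all genes. The IL-6 receptor gene Il6ra (23780 bp), the type I interferon receptor gene Ifnar2 (20263 bp) and the IL-4 receptor gene Il4ra (15794 bp) had the most covered bases. Il2ra, which encodes the α chain of the IL-2 receptor, had none in any list. Il2rg, the γ chain that Jak3 binds, had 1241 bp covered in replicate 2, 1152 bp in the pooled list and none in replicate 1 or the replicated list, as Jak3 itself. Il13ra1, which encodes a chain of the IL-4 and IL-13 receptor, also had bases in replicate 2 (2701 bp) and none in replicate 1. In all, 6 of the 73 genes were marked in replicate 2 with no base in replicate 1 or the replicated list, beside 4.65% of all coding genes. Only genes marked in replicate 2 can show this pattern, and 47 of the 73 were. The 6 of these 47 stand beside 13.1% of all coding genes marked in replicate 2, a like share.

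Of the listed Stat genes and Irf9, which encodes a DNA-binding partner of Stat factors, 6 of 8 were marked, beside 30.3% of all coding genes. Peaks covered 41962 bp of Stat5b, 28264 bp of Stat3 and 17404 bp of Stat2. Stat4, which acts in T and NK cells, had no base in any list, and Stat5a had 2155 bp in replicate 2 and none in replicate 1. Both Socs genes outside the members were marked in every list: Socs4 had 13252 bp covered and Socs5 6745 bp in the replicated list.

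Other inhibitors were marked in 11 of 13 cases, beside 30.3% of all coding genes, the share for each count of marked genes in this paragraph. Every one had at least 200 bp covered within the whole gene, as did 33.9% of all coding genes. Peaks covered 96247 bp of Cblb and 63249 bp of Cbl, which encode ubiquitin ligases, and 56482 bp of Ptprc, the gene of the phosphatase CD45. The unmarked ones, the phosphatase gene Ptpn6 (9195 bp) and the SUMO ligase gene Pias1 (66035 bp), were covered at a basic-set start. The group listed for the ubiquitin ligase that the SOCS box binds had 5 of 6 genes marked. Peaks covered 10831 bp of the elongin C gene Eloc and 6245 bp of Rnf7. The group also holds Cul2 (15348 bp), a cullin gene other than the scaffold of that ligase. The scaffold gene, Cul5, was unmarked and was covered at a basic-set start (7641 bp). Adaptor genes were marked in 3 of 4 cases, with 34129 bp in Stam, 23022 bp in Stam2 and 5060 bp in Sh2b2, and Sh2b1 had 770 bp in replicate 2 and none in the replicated list. These values are bases per gene, and the genes differ in length.

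**Figure D5:**
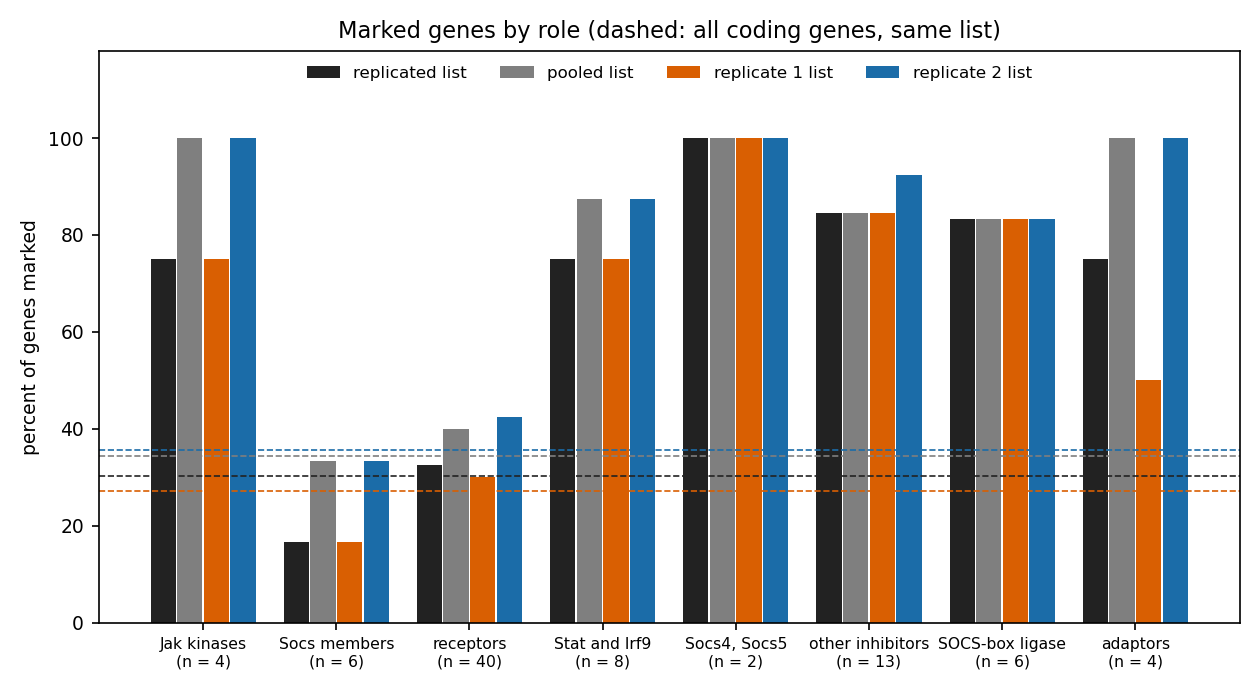
Percent of genes marked (y axis, from 0) for each role in the pathway (x axis, with the number of genes), 1 bar per list; dashed lines give the percent of all coding genes marked in the same list. In the replicated list Jak kinases stand at 75.0%, the Socs members at 16.7% and receptors at 32.5%, and the dashed line of that list at 30.3%. Socs6 counts as unmarked here. With any basic-set start, which is not drawn, the Socs members stand at 33.3%, Jak kinases at 75.0% and all coding genes at 32.5%.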

How the data were processed

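H3K79me2 ChIP-seq peaks of 2 biological replicates were analysed. The 4 peak lists (mm10), per the deposited notes, came from the alignments of replicate 1, of replicate 2, of both pooled, and of both for the replicated list. Neither the aligner nor the peak caller and its thresholds is named in the notes or labels. The deposited fold, a ratio of each peak over the control made by the authors, served to rank peaks within a list. The deposited −log10 q of each peak and its summit position were read and not used for a result. Library depth is unknown.

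Each list's peaks were merged and intersected with GENCODE M21 (GRCm38) with Python 3.11.15, over 21938 protein-coding genes of the 19 autosomes, X and Y. Figures were drawn with matplotlib 3.10.9. A gene was marked at 200 bp or more of its first 3 kb; the main transcript was the longest basic, APPRIS principal one. Named genes are all members and, per group of the wider list, the 3 marked genes with most bases covered and 3 unmarked ones in list order, or fewer, with coding neighbours within 5 kb and the 3 most similar genes. Colgalt1, Litaf, Ube2n, Pgs1 and Mapkapk3, which hold the nearest peaks, were named after their values were seen. The members and lists were chosen with earlier results of these data known. Interval code was tested on simulated data. With 1 group, no test was made.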

Additional observations from a re-analysis of the deposited data

How the results depend on the processing

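The count of marked members was 4 of 10 in the replicated list and between 4 and 6 under the 8 alternatives (another peak list, peaks at or above the median fold, a minimum of 1 bp or 1000 bp, the whole gene, any basic-set start). Jak1, Jak2, Tyk2 and Socs7 were marked under all 8. The Socs family count of 1 of 6 became 2 with the pooled list (Socs3 added), with the whole gene or any basic-set start (Socs6 added in each), and lay between 1 and 2 when 1 replicate was left out, the higher count without replicate 1. The Jak kinase count was 3 of 4, and 4 with the pooled list or without replicate 1. The pathway list ranged from 38 to 47 of 73 and all coding genes from 22.3% to 35.6%. Members with bases in both replicates stayed at 5 when at least 50% of the shorter list's bases had to be shared. This setting could not lower the count, because replicate 1's bases at these 5 genes all lay within replicate 2's. Without replicate 2, Jak2's covered bases were 3318 bp in place of 11389 bp and its longest block 1135 bp in place of 9786 bp. No paired analysis was possible because the samples form 1 group. Without read counts, a missing peak call gives no value for the signal that may lie below the calling threshold.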
